A study of Homo sapiens with 18 samples.

Results

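The genes described here are 10 feedback inhibitors of the extracellular signal-regulated kinase (ERK) pathway: the dual-specificity phosphatases DUSP1, DUSP2, DUSP4, DUSP5 and DUSP6, the Sprouty genes SPRY1, SPRY2 and SPRY4, and the Sprouty-related genes SPRED1 and SPRED2. They were chosen by name from the 58735 genes of the count table, all 10 were found, and all 10 passed the filter on low counts. RNA had been sequenced from cells of SH-SY5Y, a human neuroblastoma cell line (labelled wild type) that becomes neuron-like under retinoic acid. All 18 libraries came from cells kept for 7 days in 10 µM all-trans retinoic acid and then treated for 15 min. The 6 groups of 3 libraries were Morphine (193 nM), Metamorphine (169 nM), TRV130 (200 nM), Beta-endorphin (200 nM), Naloxone (200 nM) and Control (water). Morphine, TRV130 and beta-endorphin are opioid receptor agonists, the last of them a peptide made by the body, and naloxone is an antagonist. Metamorphine is given in the labels by name only. The labels do not state whether replicate libraries were grown as separate cultures, and p-values here reflect only their spread, which may be technical. In bulk RNA, fewer cells of a kind and less RNA per cell cannot be told apart.

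In the ERK pathway, a receptor activates RAS, which sets off the kinases RAF, MEK and ERK in turn. ERK then switches on immediate early genes such as FOS and EGR1, and also the genes of its own inhibitors, so that the signal limits itself. The DUSP proteins remove phosphate from ERK and related kinases: DUSP1, DUSP2, DUSP4 and DUSP5 act in the nucleus, while DUSP6 acts in the cytoplasm. Sprouty and Spred proteins act higher up, between the receptor and RAF. Opioid receptors couple to inhibitory G proteins and can activate ERK within minutes, and DUSP1 is a textbook target of both ERK and cyclic AMP signalling.

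Each library name ends in a number that the labels do not explain. Names such as Control_0409 are called code A here, those such as Control_1109 code B and those such as Control_14.04 code C. Code A covered 7 libraries, code B covered 6 and code C covered 5. Every group had 1 library per code apart from TRV130, with 2 in code A, 1 in code B and 0 in code C. Totals ran from 21211449 to 33123855 counts per library. All 12 markers of sympathetic neuroblastoma cells were expressed, with summed levels of 5830 to 8258 CPM, counts scaled to a common library total. Control 1 stood apart: it held 20888 reads in 3647 protein-coding genes whose median over the libraries was 0, against 276 to 3074 reads in the other 17 libraries. It also had the highest summed levels of 4 of the 5 lists of markers for other cell types. Epithelial markers summed to 21.4 CPM in Control 1, with 6.42 to 14.3 CPM in the other 17 libraries, and immune markers to 14.2 CPM, with 4.48 to 10.6 CPM in the others. Endothelial markers summed to 6.27 CPM in Control 1, with 0.237 to 2.0 CPM in the others, and Schwann and glial markers to 13.9 CPM, with 6.70 to 10.1 CPM in the others. Of these 4 lists, 5 of 7, 5 of 7, 5 of 5 and 3 of 6 markers averaged under 1 CPM, and none was at 0 in all libraries. The 7 fibroblast markers, 1 of them under 1 CPM on average, summed to 271 CPM in Control 1, within the 205 to 365 CPM of the others. Mitochondrial genes held 13.32% of the counts in Control 1, 17.67% in TRV130 1 and 15.56% in TRV130 2. In the other libraries of code A the share was 6.15% to 10.12%, and Control 2 of code B had 15.71%. Control 1 was the lowest of the 18 libraries for DUSP6, SPRY1, SPRY4, SPRED1 and SPRED2 and the highest for DUSP2. The part of these features in the results was not tested, and the treatment comparisons are also given without Control 1.

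Start regions of 4 genes that differed between library codes are shown. They differ in their matches to the motifs marked here, which are used by factors downstream of ERK and cyclic AMP. The DUSP6 window had no match to these exact strings. RefSeq (GRCh38.p14) gave 12 windows of 300 bases, running from 250 bases before to 50 after a start site, for 8 of the 10 genes. DUSP1 encodes an early nuclear phosphatase, DUSP6 the cytoplasmic ERK phosphatase, and SPRY2 and SPRY4 are Sprouty adaptors. Capitals mark TGACG, the half-site of the cyclic AMP response element, and CCGGAA, a form of the site bound by ETS factors, on either strand. Other forms of the ETS site were not searched, so a window without CCGGAA may still hold such sites.
DUSP1 (chr5:172771146-172771445, minus strand): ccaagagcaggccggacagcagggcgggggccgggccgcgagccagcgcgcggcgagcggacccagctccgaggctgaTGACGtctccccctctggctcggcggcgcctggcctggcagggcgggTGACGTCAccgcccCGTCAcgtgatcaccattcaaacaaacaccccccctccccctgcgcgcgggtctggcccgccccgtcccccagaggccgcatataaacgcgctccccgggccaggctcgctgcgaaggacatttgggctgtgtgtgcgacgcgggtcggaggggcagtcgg
DUSP6 (chr12:89352452-89352751, minus strand): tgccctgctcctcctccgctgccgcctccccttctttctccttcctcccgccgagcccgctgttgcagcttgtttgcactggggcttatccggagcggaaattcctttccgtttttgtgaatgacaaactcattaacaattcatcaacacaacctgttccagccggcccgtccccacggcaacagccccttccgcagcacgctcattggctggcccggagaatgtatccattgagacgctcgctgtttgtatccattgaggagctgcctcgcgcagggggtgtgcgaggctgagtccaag
SPRY2 (chr13:80341077-80341376, minus strand): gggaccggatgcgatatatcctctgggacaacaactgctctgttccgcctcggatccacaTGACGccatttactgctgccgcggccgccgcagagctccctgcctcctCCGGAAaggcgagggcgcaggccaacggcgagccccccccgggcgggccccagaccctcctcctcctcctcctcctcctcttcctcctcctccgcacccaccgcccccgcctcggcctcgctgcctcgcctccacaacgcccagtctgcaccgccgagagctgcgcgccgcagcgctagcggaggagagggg
SPRY4 (chr5:142324198-142324497, minus strand): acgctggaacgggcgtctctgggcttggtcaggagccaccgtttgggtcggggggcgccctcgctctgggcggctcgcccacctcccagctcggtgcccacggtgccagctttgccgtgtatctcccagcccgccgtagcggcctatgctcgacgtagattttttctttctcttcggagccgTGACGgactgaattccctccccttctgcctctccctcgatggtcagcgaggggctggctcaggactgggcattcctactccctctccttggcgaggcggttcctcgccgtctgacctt
The DUSP1 window held 4 half-sites, starting 172, 125, 122 and 111 bases before the start site. The half-sites at 125 and 122 bases overlap, and together form the full palindrome TGACGTCA. It also held TATAAA 30 bases before the start. Of all 35116 windows of this length, 24.6% had at least 1 TGACG, 0.313% had at least 4, 1.85% had TGACGTCA and 11.5% had TATAAA. The SPRY2 window printed above had 1 TGACG and 1 CCGGAA (17.2% of all windows), SPRY4 had 1 TGACG, and the DUSP6 window had neither. The other SPRY2 windows, chr13:80339610-80339909 and chr13:80340059-80340358, had no match to any motif named here. Elsewhere among the 12 windows, a SPRED2 window had 1 TGACG, a SPRY1 window had 1 CCGGAA, and a second SPRED2 window had TATAAA and 2 matches to the AP-1 site TGANTCA (7.71% of all windows). The CArG box of serum response factor (1.29% of all windows) had no match in any of them. A match is a stretch of letters and not a measured binding site.

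Scaled also by exon length (TPM), which lets genes be compared, DUSP6 was the most abundant of the 10, at 92.6 ± 24.9 TPM (SD, n = 18 libraries). SPRED2 followed at 45.4 ± 11.9 TPM, DUSP1 at 43.1 ± 20.2, SPRY1 at 35.7 ± 12.9, SPRY2 at 33.2 ± 10.5, SPRY4 at 28.8 ± 10.4 and DUSP4 at 25.0 ± 7.26 TPM. Below them lay SPRED1 at 13.7 ± 4.21, DUSP5 at 5.27 ± 1.34 and DUSP2 at 0.665 ± 0.302 TPM. DUSP6, SPRED1, DUSP5 and DUSP2 were each separated from their neighbours in this order by more than the SDs, whereas the members from SPRED2 to DUSP4 followed each other within 1 SD. DUSP2 rested on 4 to 38 reads per library, and DUSP5 on 141 to 253. On the CPM scale the highest library exceeded the lowest 3.61-fold for SPRY1, 3.43-fold for DUSP1, 2.61-fold for SPRY4, 2.50-fold for SPRED2, 2.42-fold for SPRED1 and between 1.66-fold and 2.04-fold for DUSP4, DUSP5, DUSP6 and SPRY2. For DUSP2 the ratio was 9.06, on its few reads.

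**Figure D1:**
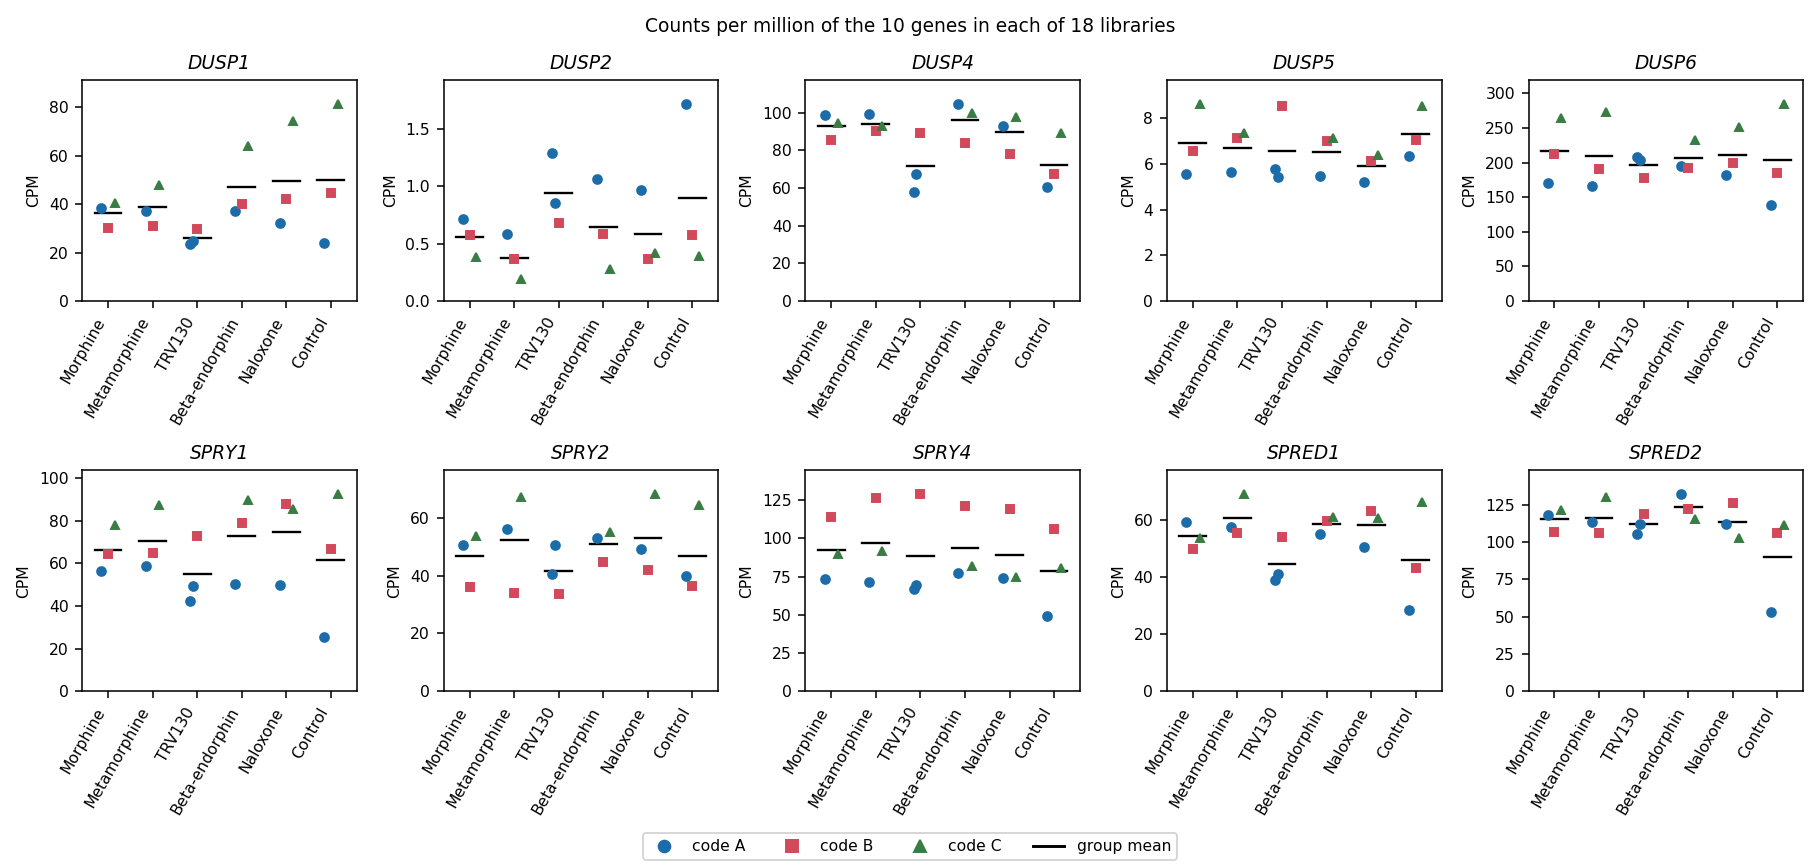
CPM (vertical axes, each starting at 0) of the 10 genes in the 18 libraries, by treatment group (horizontal axes). Points are single libraries, their shape and colour show the library code, and bars are group means; SPRY4 is highest in the 6 libraries of code B (106 to 129 CPM) and DUSP6 in the 5 of code C (233 to 285 CPM).

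Calls in these genes lay between library codes and not between treatments, and the same was true over all tested genes. The tests are not alike. Codes had 5 to 7 libraries each, with group in the model, whereas treatments had 3 each, without code in the model. With the treatment group in the model, edgeR's quasi-likelihood test found a difference among the 3 codes (adjusted p under 0.05, Benjamini-Hochberg over all 23231 tested genes) for 7 of the 10 genes, against 57.8% of all tested genes. DUSP1, DUSP2, DUSP5, DUSP6, SPRY1, SPRY2 and SPRY4 passed. SPRED1 (adjusted p = 0.0732), DUSP4 (adjusted p = 0.409) and SPRED2 (adjusted p = 0.483) did not. What distinguishes the codes, whether a culture, a day or a sequencing run, cannot be told from the labels.

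SPRY4, a Sprouty adaptor that restrains growth factor signalling to RAS, separated code B from both other codes. Its level ran from 106 to 129 CPM in code B (median 120.3), against 49.4 to 77.0 CPM in code A (median 71.5). In code C it was 89.8 CPM in Morphine 3, 91.9 in Metamorphine 3, 82.1 in Beta-endorphin 3, 74.9 in Naloxone 3 and 80.5 in Control 3. Every library of code B lay above every library of the other codes. The log2 fold change was 0.81 (SE 0.08, adjusted p = 7.15e-05, edgeR) for code B over code A, 0.31 (SE 0.09, adjusted p = 0.0161) for C over A and -0.50 (SE 0.09, adjusted p = 0.000257) for C over B.

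SPRY2, its close relative, ran the other way in code B. It was lowest in code B, at 33.8 to 44.7 CPM (median 36.1), against 39.8 to 56.1 CPM in code A (median 50.5). In code C it was 53.6 CPM in Morphine 3, 67.3 in Metamorphine 3, 55.2 in Beta-endorphin 3, 68.3 in Naloxone 3 and 64.5 in Control 3, all above every library of code B. Code C over code B gave a log2 fold change of 0.69 (SE 0.11, adjusted p = 7.34e-05), against -0.38 (SE 0.10, adjusted p = 0.0121) for B over A and 0.31 (SE 0.11, adjusted p = 0.0355) for C over A. The SPRY2 call for B over A was lost without the TRV130 group (-0.35, adjusted p = 0.0664), and the calls for C over A were lost without Control 3 for both genes, and for SPRY2 also without Control 1, Metamorphine 3, Naloxone 1 or Naloxone 3.

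SPRY1, the remaining Sprouty gene, was lowest in code A. It ran from 64.5 to 87.8 CPM in code B (median 70.0), against 25.6 to 58.9 CPM in code A (median 50.1), with no overlap. In code C it was 78.2 CPM in Morphine 3, 87.5 in Metamorphine 3, 89.7 in Beta-endorphin 3, 85.7 in Naloxone 3 and 92.6 in Control 3. The log2 fold change over code A was 0.88 (SE 0.15, adjusted p = 0.000752) for code C and 0.62 (SE 0.14, adjusted p = 0.00588) for code B. Between C and B it was 0.26 (95% interval -0.05 to 0.58), short of the threshold.

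DUSP6, which removes phosphate from ERK in the cytoplasm, was highest in code C. There it was 265 CPM in Morphine 3, 273 in Metamorphine 3, 233 in Beta-endorphin 3, 251 in Naloxone 3 and 285 in Control 3, against 178 to 212 CPM in code B (median 192) and 139 to 208 CPM in code A (median 183). No library of code C overlapped the other codes. In the edgeR fit, the log2 fold change was 0.58 (SE 0.10, adjusted p = 0.00104) for C over A and 0.46 (SE 0.10, adjusted p = 0.00133) for C over B. For B over A it was 0.12 (95% interval -0.08 to 0.32). Some DUSP6 reads cannot be told apart from those of an overlapping gene. Relative to DUSP6, that gene had fewer reads in code C than in code B, as given below.

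DUSP1, the early nuclear phosphatase, was also highest in code C, but its libraries there were spread widely. It was 40.5 CPM in Morphine 3, 47.7 in Metamorphine 3, 64.0 in Beta-endorphin 3, 74.2 in Naloxone 3 and 81.4 in Control 3, against 29.6 to 44.8 CPM in code B (median 35.4) and 23.7 to 38.4 CPM in code A (median 32.4). Code C did not overlap code A but did overlap code B, through Morphine 3. The log2 fold change was 0.83 (SE 0.16, adjusted p = 0.00179) over code A and 0.68 (SE 0.16, adjusted p = 0.00237) over code B. Within code C each treatment had 1 library, so the order from Control 3 down to Morphine 3 has no replicate.

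The other nuclear phosphatases differed in opposite directions. DUSP5, an ERK-specific phosphatase, was 8.63, 7.34, 7.14, 6.39 and 8.52 CPM in the Morphine, Metamorphine, Beta-endorphin, Naloxone and Control libraries of code C, against 5.20 to 6.36 CPM in code A (median 5.55). DUSP2, an inducible phosphatase best known in immune cells, was 0.385, 0.189, 0.282, 0.419 and 0.389 CPM in the same libraries of code C, against 0.580 to 1.72 CPM in code A (median 0.967). Neither overlapped. For C over A the log2 fold change was 0.46 (SE 0.11, adjusted p = 0.00542) for DUSP5 and -1.50 (SE 0.30, adjusted p = 0.00193) for DUSP2, and for B over A it was 0.34 (SE 0.10, adjusted p = 0.0221) for DUSP5 and -0.90 (SE 0.26, adjusted p = 0.0191) for DUSP2.

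DUSP4 and the Spred genes were the steadiest between codes. DUSP4, a nuclear phosphatase induced by ERK, averaged 94.9 ± 4.22 CPM in code C (SD, n = 5), 82.4 ± 8.36 in code B (n = 6) and 83.1 ± 20.3 in code A (n = 7). SPRED2, an adaptor that holds back RAF activation, averaged 116.1 ± 10.4, 114 ± 9.27 and 107 ± 25.1 CPM in the same order. SPRED1, which brings the RAS inactivator neurofibromin to the membrane, averaged 62.1 ± 5.95, 54.2 ± 7.09 and 47.2 ± 11.4 CPM, with a log2 fold change of 0.37 (SE 0.14, adjusted p = 0.0461) for C over A. That call was lost in 10 of the 18 fits that left out 1 library.

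Counted over the group, 8 of the 10 genes passed for code C against A (33.2% of all tested genes), with 7 higher (16.1% of all) and 1 lower (17.1%). For code B against A, 5 passed (26.9% of all tested genes), with 3 higher (11.5%) and 2 lower (15.5%). For code C against B, 4 passed (54.8%), with 3 higher (26.9%) and 1 lower (27.8%), so the share of members called was above that over all genes in the first 2 of these comparisons and below it in the third. Libraries did not overlap for 5 genes in C against A (13.6% of all genes), 2 in B against A (8.21%) and 3 in C against B (42.7%). The calls nearest the threshold were lost when a library was left out. For C against A, SPRED1, SPRY2 and SPRY4 were lost without Control 3 (5 of 10 called), and SPRY2 in 5 and SPRED1 in 10 of the 18 fits that left out 1 library. For B against A, DUSP2 and DUSP5 were lost without TRV130 3 or without Naloxone 2 (3 of 10 called each). DUSP2 was also lost without Control 1 or Control 2, and DUSP5 without Metamorphine 2, Beta-endorphin 1 or Beta-endorphin 2.

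**Figure D2:**
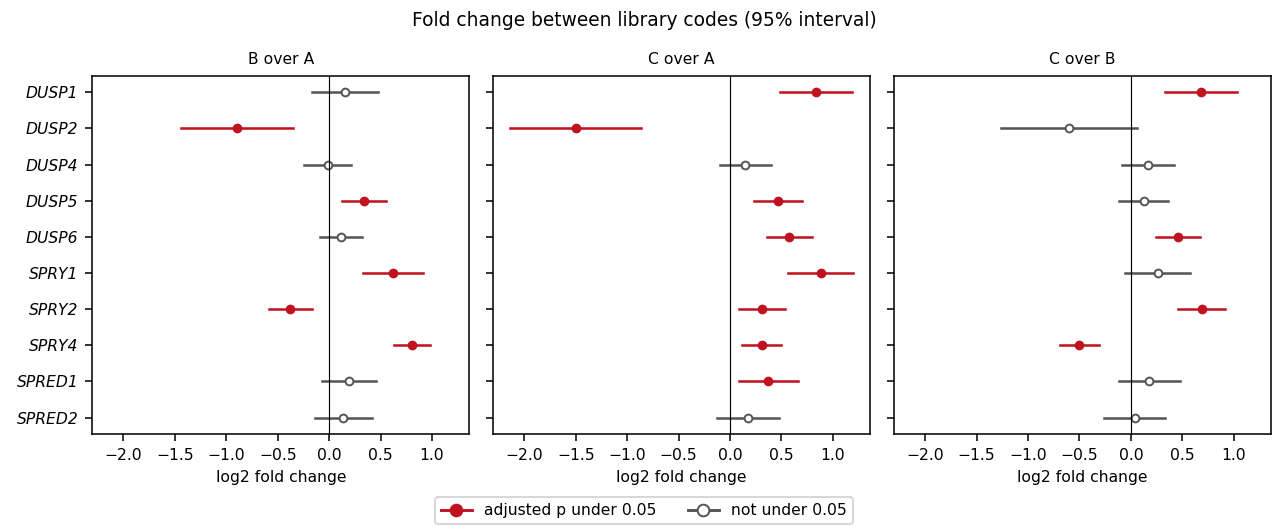
Log2 fold change (horizontal axes) of each of the 10 genes between library codes, with 95% intervals, from the edgeR fit with code and treatment group. Filled points passed at an adjusted p under 0.05; SPRY4 is at 0.81 and SPRY2 at -0.38 for code B over A.

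No treatment was told apart from Control in any of the 10 genes. The edgeR quasi-likelihood test with 1 mean per group called 0 of 10 members in each of the comparisons with Control, and 0 of all 23231 tested genes (0%), with 944 (Morphine), 1820 (Metamorphine), 430 (TRV130), 2198 (Beta-endorphin) and 1545 (Naloxone) genes at an unadjusted p under 0.05. Among members, unadjusted p was under 0.05 for DUSP1 in TRV130 and for DUSP4 and SPRED2 in Beta-endorphin. DESeq2 called 0 members in each of these comparisons, and 0, 0, 1, 1 and 2 genes in the same order of treatments. The comparisons share the 3 Control libraries. Library code was not in these fits, so differences between codes enter their SEs and p-values. With code as a block, 0 members were called either.

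DUSP4 was 104.7, 83.8 and 100.1 CPM in the Beta-endorphin libraries, 99.4, 90.1 and 93.1 in Metamorphine, 99.0, 85.5 and 94.3 in Morphine, 92.8, 78.1 and 97.7 in Naloxone and 58.0, 67.5 and 89.1 in TRV130, against 60.5, 67.7 and 89.2 CPM in Control. The 3 Metamorphine libraries lay above all Control libraries (9.35% of tested genes did not overlap in this comparison), and the TRV130 and Control ranges nearly coincided. The log2 fold change over Control was 0.41 (SE 0.18, 95% interval 0.03 to 0.79, adjusted p = 0.513, edgeR) for Beta-endorphin, 0.38 (SE 0.18, adjusted p = 0.595) for Metamorphine, 0.36 (SE 0.18, adjusted p = 0.823) for Morphine and 0.31 (SE 0.18, adjusted p = 0.655) for Naloxone. Against the Control library of its own code, DUSP4 was higher in 5 of 6 treated libraries of code A (log2 differences -0.06 to 0.79), 5 of 5 of code B (0.21 to 0.41) and 4 of 4 of code C (0.06 to 0.17). Treated libraries of a code share 1 Control library, so these differences are not independent. The share of all genes with such counts was not taken. Without Control 1 the log2 fold changes over Control were 0.27 for Beta-endorphin, 0.26 for Metamorphine, 0.23 for Morphine and 0.19 for Naloxone.

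SPRED2 was 132, 122 and 115 CPM in the Beta-endorphin libraries, 118, 107 and 121 in Morphine, 113, 106 and 130.0 in Metamorphine, 112, 126 and 102 in Naloxone and 105, 112 and 119 in TRV130, against 52.9, 105.7 and 111.1 CPM in Control. The Beta-endorphin libraries all lay above Control (10.6% of tested genes did not overlap), and Control 1 lay far below the rest. In Morphine (5.18% of tested genes), TRV130 (3.46%) and Naloxone (7.84%), 0 of the 10 genes were free of overlap with Control. Its log2 fold change was 0.46 (SE 0.21, 95% interval 0.01 to 0.90, adjusted p = 0.513) for Beta-endorphin, 0.37 (SE 0.21) for Metamorphine, 0.36 (SE 0.21) for Morphine, 0.34 (SE 0.21) for Naloxone and 0.32 (SE 0.21) for TRV130. Without Control 1 these values were 0.17 for Beta-endorphin, 0.10 for Metamorphine, 0.07 for Morphine, 0.07 for Naloxone and 0.03 for TRV130. Averaged over the 5 compounds it was 0.37 (SE 0.17, adjusted p = 0.436), and 0.09 without Control 1. Within codes the differences were 0.99 to 1.32 in code A, 0.01 to 0.26 in code B and -0.12 to 0.23 in code C.

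DUSP1 was 23.7, 24.6 and 29.6 CPM in the TRV130 libraries, 38.4, 30.1 and 40.5 in Morphine, 37.3, 30.9 and 47.7 in Metamorphine, 37.0, 39.9 and 64.0 in Beta-endorphin and 32.4, 42.3 and 74.2 in Naloxone, against 24.0, 44.8 and 81.4 CPM in Control. The Control libraries spanned those of every treatment except TRV130 1. The log2 fold change was -0.95 (SE 0.37, 95% interval -1.73 to -0.16, adjusted p = 1.00) for TRV130 over Control and -0.46 (SE 0.37, adjusted p = 0.823) for Morphine. TRV130 has no library of code C, where DUSP1 was highest, so treatment and code cannot be fully told apart in this value. The part of the high mitochondrial shares of TRV130 1 and TRV130 2 in it was not tested. The DUSP1 value was -0.40 for TRV130 without Control 3 and -1.30 without Control 1, and for Morphine 0.09 and -0.81. Against the Control library of the same code, DUSP1 was lower in 4 of 4 treated libraries of code C (-1.01 to -0.13) and lower in 5 of 5 of code B (-0.60 to -0.08), but higher in 5 of 6 of code A (-0.01 to 0.68), where the Control library is Control 1. These differences also share 1 Control library per code, and the share of all genes with such counts was not taken.

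None of the other 7 genes passed against Control. Over the 5 compounds on average, log2 fold changes were 0.26 (SE 0.18) for SPRED1, 0.22 (SE 0.26) for SPRY4, 0.13 (SE 0.29) for SPRY1, 0.06 (SE 0.21) for SPRY2, 0.03 (SE 0.20) for DUSP6, -0.17 (SE 0.18) for DUSP5 and -0.57 (SE 0.46) for DUSP2, with adjusted p between 0.528 and 0.945. Without Control 1 these means were -0.01 for SPRED1, -0.03 for SPRY4, -0.25 for SPRY1, -0.06 for SPRY2, -0.19 for DUSP6, -0.26 for DUSP5 and 0.30 for DUSP2, so all but that of DUSP5 turned sign. DUSP6 averaged 216 ± 47.0 CPM in Morphine, 210.1 ± 55.7 in Metamorphine, 197 ± 16.1 in TRV130, 207 ± 22.7 in Beta-endorphin and 211 ± 35.8 in Naloxone, against 203 ± 74.3 CPM in Control (SD, n = 3 each). SPRED1 averaged 54.2 ± 4.81, 60.7 ± 7.29, 44.6 ± 8.31, 58.6 ± 3.08 and 58.0 ± 6.67 CPM in the same treatments, against 46.0 ± 19.0 CPM in Control. For DUSP2 in Metamorphine the value was -1.20 (SE 0.64, adjusted p = 0.595), on 4 to 38 reads per library, and -0.32 without Control 1. SPRED1 in Beta-endorphin stood at 0.35 (SE 0.23) and in Naloxone at 0.34 (SE 0.23), and DUSP5 in TRV130 at -0.15 (SE 0.23). These were 0.08, 0.09 and -0.26 without Control 1.

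**Figure D3:**
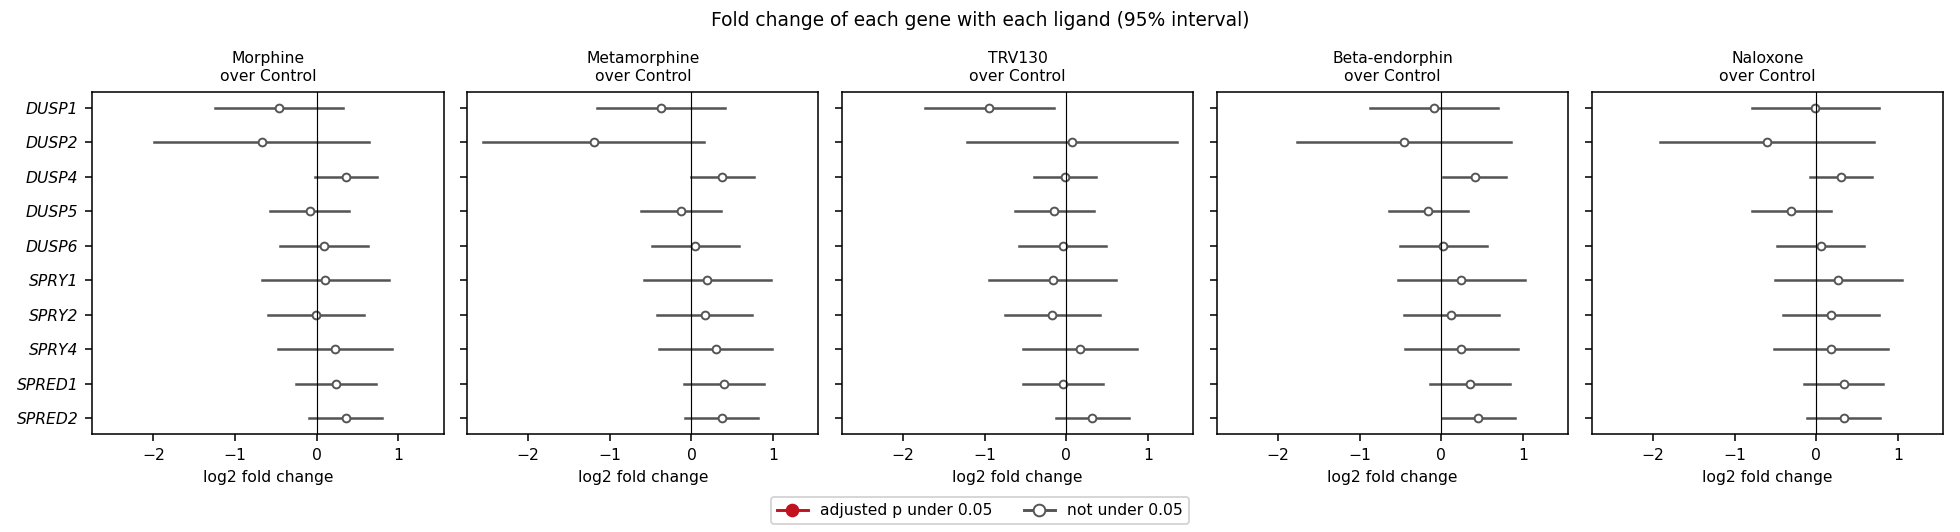
Log2 fold change (horizontal axes) of each of the 10 genes in each treatment over Control, with 95% intervals, from the edgeR fit with 1 mean per group. All points are open because none passed at an adjusted p under 0.05; the interval leaves 0 for DUSP1 in TRV130 and for DUSP4 and SPRED2 in Beta-endorphin.

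Counted by direction, 6 of the 10 genes lay above Control in Morphine, 7 in Metamorphine, 3 in TRV130, 7 in Beta-endorphin and 7 in Naloxone. The median log2 fold changes were 0.10, 0.18, -0.04, 0.18 and 0.18, against -0.03, -0.04, -0.02, -0.04 and -0.04 over all tested genes, of which 46.4%, 46.8%, 47.2%, 46.4% and 46.3% lay above 0. Without Control 1 the counts were 3, 5, 2, 4 and 5 of 10 in the same order, with medians of -0.08, -0.06, -0.27, -0.01 and 0.01. Of all 23798 genes tested in that fit, 10011, 10644, 10096, 9931 and 10594 lay above 0. Their medians were -0.046, -0.039, -0.055, -0.063 and -0.038. For the mean of the compounds the count of members was 7 with Control 1 and 3 without it. In TRV130 it was 7 without Control 3 and 5 without TRV130 2. In code A, 6 of 6 treated libraries exceeded Control 1 in each of DUSP6, SPRY1, SPRY2, SPRY4, SPRED1 and SPRED2, whereas in code C 0 of 4 exceeded Control 3 in DUSP6 and SPRY1. Over all tested genes, the median difference of a treated library from its own code's Control lay between -0.04 and 0.04. In code A, 50.5% to 53.6% of all tested genes exceeded Control 1 in a given treated library. The share that did so in 6 of 6, or that exceeded Control 3 in 0 of 4 in code C, was not counted.

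**Figure D4:**
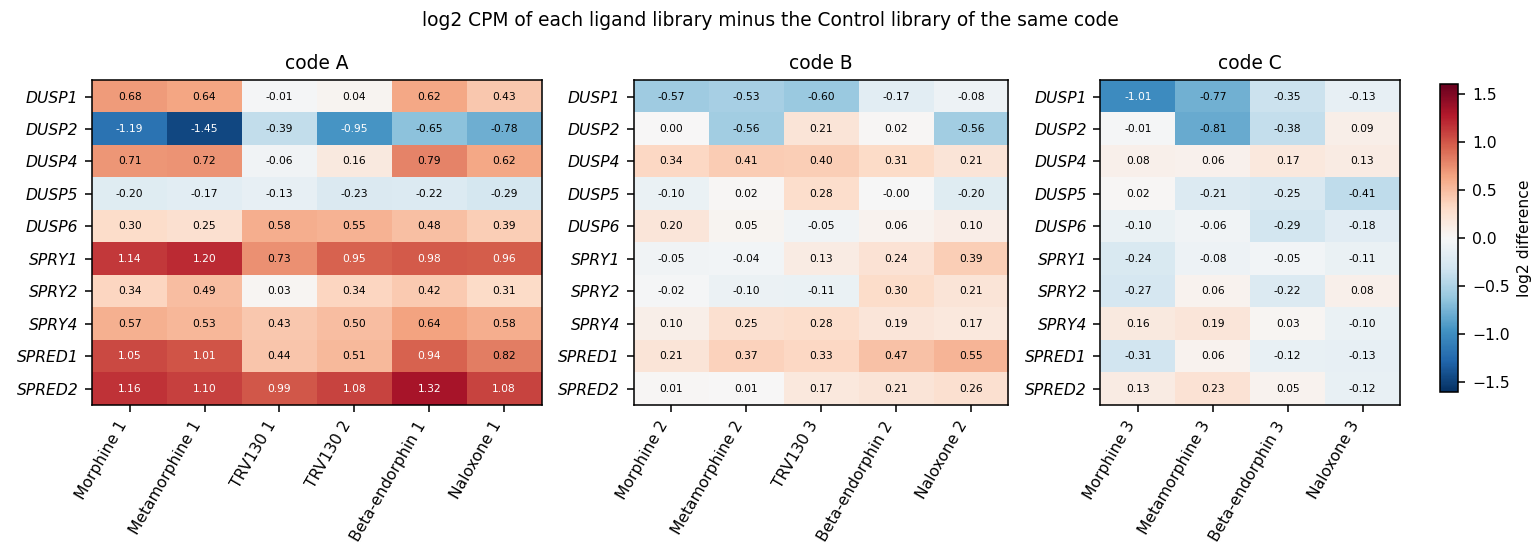
Log2 CPM of each treated library minus the Control library of the same code, for the 10 genes (rows) and the 15 treated libraries (columns), red where the treated library is higher and blue where it is lower. Each cell compares 1 library with 1 library; SPRED2 is 0.99 to 1.32 in code A and -0.12 to 0.26 in the other codes.

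At the shared dose of 200 nM, 3 ligands could be set against each other. Beta-endorphin over Naloxone, an agonist against an antagonist, had log2 fold changes of -0.08 to 0.15 over the 10 genes and called 0 of 10 (0% of all genes). DUSP4 was at 0.10 (SE 0.18, 95% interval -0.28 to 0.49), SPRED2 at 0.12 (SE 0.21) and DUSP5 at 0.15 (SE 0.23), each with adjusted p = 1.00, edgeR. Intervals of this width do not show that the ligands act alike. Beta-endorphin over TRV130 stood at 0.43 (SE 0.18) for DUSP4, 0.85 (SE 0.37) for DUSP1 and 0.39 (SE 0.23) for SPRED1, each with adjusted p = 0.810, and Naloxone over TRV130 at 0.32 (SE 0.18), 0.93 (SE 0.37) and 0.38 (SE 0.23), each with adjusted p = 0.921. The DUSP1 values were 0.56 without Beta-endorphin 3 and 0.50 without Naloxone 3, the libraries of code C. At unadjusted p under 0.05 these comparisons held 52, 1324 and 977 genes, and DESeq2 called 1, 0 and 2.

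The rest of the pathway held no call against Control either. Of 7 relatives tested (DUSP7, DUSP8, DUSP9, DUSP10, DUSP16, SPRY3 and SPRED3), 28 genes of the cascade and 19 of 20 ERK output genes, 0 were called in any treatment. The cascade genes, such as the receptor adaptor SHC3 and the RAS activator SOS2, lay above Control in 20, 20, 15, 21 and 18 of 28 cases for Morphine, Metamorphine, TRV130, Beta-endorphin and Naloxone. Their median log2 fold changes were 0.21, 0.24, 0.01, 0.30 and 0.21. Output genes lay above Control in 6, 7, 6, 9 and 7 of 19, with medians of -0.14, -0.27, -0.16, -0.12 and -0.17, and the relatives in 6, 6, 4, 5 and 6 of 7. Without Control 1 the counts were 20, 19, 8, 20 and 18 of 28 for the cascade genes (medians 0.06, 0.13, -0.12, 0.12 and 0.07). They were 5, 6, 5, 5 and 6 of 19 for the output genes (medians -0.35, -0.36, -0.21, -0.26 and -0.26) and 5, 7, 4, 5 and 4 of 7 for the relatives. Medians over all tested genes without Control 1 lay between -0.063 and -0.038. SHC3 was at 0.65 (SE 0.24, adjusted p = 0.513) in Beta-endorphin, and the immediate early gene FOS at -0.83 (SE 0.39, adjusted p = 0.823) in Morphine and -1.03 (SE 0.39, adjusted p = 1.00) in TRV130. Without Control 1 these were 0.43, -1.18 and -1.38. Between codes the lists did hold calls: 5 of 7 relatives, 16 of 28 cascade genes and 13 of 19 output genes differed among the codes, against 57.8% of all genes. DUSP9, a cytoplasmic ERK phosphatase, was lower in code C than in A by a log2 fold change of -0.67 (SE 0.14, adjusted p = 0.00209). The immediate early gene EGR3 was at 1.19 (SE 0.24, adjusted p = 0.00377) for code B over A and -1.63 (SE 0.28, adjusted p = 0.000153) for C over B, and RAS gene NRAS at 0.72 (SE 0.11, adjusted p = 5.18e-05) for C over B.

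With the mean of each code taken out, each of the 10 genes was compared with other genes for how it varied. Over the 18 libraries, DUSP1 was most like BTG2, an immediate early antiproliferative gene (Pearson r = 0.92, and 0.92 without Control 1), among 10691 protein-coding genes of at least 10 CPM. DUSP4 was most like RAB6B (r = 0.98, and 0.97 without Control 1). SPRED1 was most like ICK and CREB1 (r = 0.98 and 0.97, and 0.98 and 0.94 without Control 1). SPRY4 was most like PROSER1 (r = 0.96), SPRY1 like TRAPPC8 (r = 0.94), and DUSP6 like RAB2B (r = 0.92). Without Control 1, the values of SPRY4, SPRY1 and DUSP6 were 0.89, 0.79 and 0.86. SPRED2 was most like ZNF275 (r = 0.97, and 0.89 without Control 1). SPRY4 was also like ZNF275 (r = 0.93, and 0.77 without Control 1). Both were like RAVER2, with r = 0.97 for SPRED2 and 0.96 for SPRY4. Without Control 1 these RAVER2 values were 0.805 and 0.92. SPRY2 was most like APOL4 (r = 0.84), DUSP2 like MAPK11 (r = 0.86) and DUSP5 like RANGAP1 (r = 0.77). Without Control 1, the values of SPRY2, DUSP2 and DUSP5 were 0.85, 0.80 and 0.74. Among the 10 genes themselves, SPRY4 and SPRED2 had r = 0.91, SPRY1 and SPRED1 r = 0.89, and SPRY1 and SPRED2 r = 0.88. Without Control 1 these were 0.75, 0.80 and 0.49. These values describe libraries that share their preparation and scaling, and those named were the highest of many.

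Reads of DUSP6 carry a further limit. DUSP6 (ENSG00000139318, chr12:89347232-89353271, minus strand, GRCh38) overlaps AC024909.2 (ENSG00000274021), a gene on the opposite strand that shares 1875 of the 4632 exon bases of DUSP6, all at its 5′ end. The libraries carry no strand, so reads of these genes cannot be told apart there. AC024909.2 had 33490 reads in all, against 98276 for DUSP6. As a percentage of the reads of DUSP6 it had 21.7% in TRV130 1, 27.8% in TRV130 2 and 9.84% in Control 1. The other libraries of code A had 37.1% to 42.2%. Code B had 35% to 42.7% and code C 28.5% to 33.7%, without overlap. The part of AC024909.2 in the DUSP6 values, and in their differences between codes, was not tested. SPRY4 (ENSG00000187678, chr5:142310427-142326455, minus strand) shares no exon base with SPRY4-AS1 on the opposite strand, and SPRY2 (ENSG00000136158, chr13:80335976-80340951, minus strand), SPRY1 (ENSG00000164056, chr4:123396795-123403760, plus strand) DUSP4 (ENSG00000120875), DUSP2 (ENSG00000158050, chr2:96143166-96145440, minus strand), DUSP5 (ENSG00000138166, chr10:110497838-110511544, plus strand) and SPRED1 (ENSG00000166068, chr15:38252326-38357249, plus strand) overlap no annotated gene. DUSP1 (ENSG00000120129, chr5:172768090-172771195, minus strand) overlaps a gene with 82 reads in all, and SPRED2 (ENSG00000198369, chr2:65310851-65432637, minus strand) one with 31.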

How the data were processed

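RNA was measured in 18 libraries. The authors deposited raw read counts for Ensembl genes. The build was GRCh38 (hg38) and the tools were HISAT2, featureCounts, FastQC and DESeq2, per the submitters' processing notes. The sources used here give no versions, settings or annotation. Libraries were unstranded paired reads, per the labels' protocols. All 58735 gene IDs were those of GENCODE 29, which gave symbols, positions and exon lengths.

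Counts were tested with edgeR 4.0.16 (R 4.3.3): filterByExpr with a minimum count of 10 (23231 genes), TMM scaling, and the robust quasi-likelihood test on all 18 libraries, with group alone for treatments and code plus group for codes (biological coefficient of variation 0.309 and 0.182). Two-sided p-values were adjusted over all tested genes (Benjamini-Hochberg). SEs came from the fold change and its F statistic. CPM used TMM-scaled totals, log2 CPM a prior count of 2, and TPM the exon length. Of the TRV130 libraries, 2 end in 10409 and 20409, which were read as A. The test was checked on simulated counts.

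Members and lists were chosen with earlier results of these data known. Every member is described; fold changes with errors are given for those that passed or, where fewer than 3 did, the 3 with the smallest p, and for other lists up to 4 that passed or the 2 with the smallest p. Further values of members in the same comparisons were added after they were seen. Alternatives were DESeq2 1.42.0, RLE scaling, no filter, the compared groups alone, replicate blocks and each library left out. Joint omissions, and the code block without Control 1, were chosen after seeing the data.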

Additional observations from a re-analysis of the deposited data

Results flagged for a closer look

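Within code A, Control 1 lay far below the other 6 libraries in 3 of the 10 genes, by Dixon's test at the 95% level. SPRY1 was 25.63 CPM in Control 1, against 42.5 to 58.9 CPM in the other libraries of that code. SPRY4 was 49.42 CPM, against 66.7 to 77.0 CPM. SPRED2 was 52.94 CPM, against 105.3 to 132.3 CPM. The test was run on 30 sets of libraries (10 genes in 3 codes), and chance alone would pick out about 1 in 20 of independent sets. These sets are not independent, as they share libraries and members vary together (r = 0.91 for SPRY4 and SPRED2). Other genes were not put to the test, so it cannot show whether low values in Control 1 are particular to these 3. Control 1 was also the library with the most reads in genes whose median over the libraries was 0, and the part of this in the 3 values was not tested.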

How the results depend on the processing

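Replicate numbers were not taken as pairs, because not every pair of same-numbered libraries had deviations from the group means that correlated above 0.1: 29 of 45 did (-0.56 to 0.759, median 0.335), against 30 of 90 pairs with other numbers (median -0.139). The number matches the code outside TRV130, and by code it was 36 of 45 pairs (median 0.429), against 23 of 90 (median -0.187). With the replicate block by number or by code, 0 members were called in any treatment comparison. With the replicate block by library code, DUSP1 in TRV130 stood at -0.55, 6 members lay above Control in TRV130, and 1 gene was called for the mean of the 5 compounds. For that mean, the edgeR adjusted p was 0.110 for SPRY4 and 0.158 for SPRED1 with the code block, against 0.687 and 0.528 without it. With the code block and without Control 1, these were 0.935 and 0.948. With that block and without Control 1, 5 members lay above Control in TRV130 and 4 for the mean of the compounds, DUSP5 in TRV130 turned to 0.043, the means of SPRY1, SPRY2 and DUSP6 turned to -0.0087, -0.0329 and -0.0367, and 1 gene was called for the mean; the cause was not tested. DESeq2 called 1 gene in TRV130, 1 in Beta-endorphin, 2 in Naloxone, 12 for the mean, 1 for Beta-endorphin over Naloxone, 2 for Naloxone over TRV130 and 9 for any group, all with 0 members. Without the low-count filter 3270 genes were called for the mean.

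For code B against A, 1862 genes and 2 members were called without the TRV130 group, 1557 and 2 without TRV130 1 and TRV130 2, and 1881 and 3 without Control 1, Naloxone 1 and Naloxone 2, which left 4724 genes for C against A. Fewer libraries enter these fits. With each library left out in turn, genes called ran from 2520 to 7769 and members from 3 to 5 for B against A, and from 4819 to 8947 and 5 to 8 for C against A. Genes called for the mean ran from 0 to 366, the highest without Control 3. Members above Control ran from 3 to 9 in Morphine, 2 to 7 in TRV130, 4 to 8 in Beta-endorphin and 3 to 8 for the mean. DUSP1 in Morphine ran from -0.81 to 0.0909 (above 0 without Control 3), and DUSP4 for Beta-endorphin over Naloxone from -0.0046 to 0.20 (below 0 without Naloxone 2). The means of the 5 compounds ran from -0.0052 to 0.62 for SPRED1, -0.92 to 0.30 for DUSP2, -0.0293 to 0.50 for SPRY4, -0.25 to 0.55 for SPRY1, -0.0943 to 0.37 for SPRY2, -0.19 to 0.37 for DUSP6 and -0.72 to 0.17 for DUSP1. The first 6 changed sign without Control 1 and that of DUSP1 without Control 3. SPRY2 also did so without Control 2, and DUSP6 without Control 2, Morphine 3, Metamorphine 3 or Naloxone 3. Of the values of members chosen by the naming rule, plus the 10 means over compounds, taken over all alternatives, 1167 kept direction and side of the threshold, 18 turned sign and 39 lost the call. The lost calls were all of SPRY2, DUSP2 or DUSP5 in B against A or of SPRED1, SPRY2 or SPRY4 in C against A. Depth limits DUSP2 most, at 4 to 38 reads per library.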
